A study of Homo sapiens with 20 samples.

Results

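LUNAR1 and IGF1R, a long noncoding RNA and the receptor gene beside it, were followed in 10 cell lines of T-ALL, the acute lymphoblastic leukemia of T-cell precursors, with and without inhibition of NOTCH signalling. The members were the probe sets that the platform's annotation assigns to LUNAR1 alone (1 probe set) or to IGF1R alone (3 probe sets), 2 genes of the 11963 that the array names singly. LUNAR1 was chosen by its fall under the inhibitor in these same arrays, and IGF1R as its neighbour in the genome with that contrast in view. The changes of both genes under the inhibitor are therefore a description and were not tested.

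The lines were CUTLL1, PF382, HPB-ALL, ALL-SIL, KOPTK1, MOLT3, RPMI8402, DND41, P12-ICHIKAWA and CCRF-CEM, all with activating NOTCH1 mutations per the series' description. A pair of arrays was run per line, 1 of cells kept in the vehicle DMSO and 1 of cells in CompE at 100 nM, both for 72 h, and the labels of 6 CompE arrays name the agent without the dose. CompE inhibits gamma-secretase, the protease that frees the active intracellular part of NOTCH receptors. Every line is a single established culture with 1 array per treatment, so the spread reported here is that between lines and a level in a single line has no error of its own. For CCRF-CEM, MOLT3 and P12-ICHIKAWA the growth medium written in the DMSO label differs from that in the CompE label.

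LUNAR1 (leukemia-associated noncoding IGF1R activator RNA 1) is known in T-ALL as an RNA that NOTCH1 switches on and that acts on the IGF1R gene nearby. IGF1R encodes the type 1 insulin-like growth factor receptor, a tyrosine kinase at the cell surface that signals through IRS adapters to PI3 kinase and AKT and through RAS to MAP kinases. In T-ALL the receptor is known to support leukemic cell growth, and an enhancer bound by NOTCH1 has been described within the gene.

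On chromosome 15 both genes run on the plus strand, and the annotated start of LUNAR1 lies 366 kb beyond that of IGF1R (RefSeq, GRCh38.p14). The single gene of the RefSeq table that lies wholly between them, PGPEP1L, had no probe set to itself and could not be analysed here. The 250 bases before each start are shown because NOTCH acts on DNA through its partner RBPJ. Capitals mark matches to the RBPJ core TGGGAA, searched on both strands, and the longer motif GTGGGAA contains that core. The windows are chr15:99014454-99014703 for LUNAR1 and chr15:98648289-98648538 for IGF1R, plus strand, from 5′ to 3′.
LUNAR1: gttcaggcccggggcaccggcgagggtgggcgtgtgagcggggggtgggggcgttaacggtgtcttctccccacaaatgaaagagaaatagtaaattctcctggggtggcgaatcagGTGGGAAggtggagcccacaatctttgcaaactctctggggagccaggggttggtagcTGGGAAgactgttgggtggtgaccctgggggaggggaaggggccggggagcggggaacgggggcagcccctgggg
IGF1R: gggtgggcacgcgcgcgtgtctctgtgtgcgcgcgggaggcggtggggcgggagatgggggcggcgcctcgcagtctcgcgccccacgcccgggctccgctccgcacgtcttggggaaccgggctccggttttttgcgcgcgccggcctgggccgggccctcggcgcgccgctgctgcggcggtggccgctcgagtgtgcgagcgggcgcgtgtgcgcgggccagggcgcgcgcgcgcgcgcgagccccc

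The LUNAR1 window held the core at 2 places, 132 and 75 bases before the start, the more distant of them within the longer motif. The core occurred in 20.8% and the longer motif in 5.43% of 35116 RefSeq windows of this length. The IGF1R window held no match on either strand, and its GC content was 81.2% against 64.4% in the LUNAR1 window. A match describes the letters only and shows no binding.

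The arrays carried T-lineage RNA in every line. Of 10 T-lineage markers 9 had a probe set, and their summed signal lay between 13615 and 26198 in DMSO and between 13580 and 29254 in CompE. The mean signal over all arrays was 100 or more for all 9, while CD2 reached down to 2.61 and CD5 to 11.2 on single arrays. Myeloid markers (4 of 5 measured) summed to 18.2 to 71.6, erythroid (3 of 5) to 12.8 to 105, epithelial (5 of 5) to 56.7 to 263 and fibroblast markers (5 of 5) to 42.7 to 239. B-lineage markers (4 of 5) summed to 66.5 to 2543 in DMSO and 59.5 to 1883 in CompE, with CD79A at up to 2469 and PAX5 and MS4A1 at 64.7 and 61.4 at most. For ACTB the signal near the 3′ end over that near the 5′ end, a measure of RNA degradation, was higher in CompE in 9 of 10 lines. KOPTK1 had ratios of 3.32 without and 9.76 with CompE, and the other arrays lay between 1.02 and 1.99. The NOTCH target HES1, which encodes a transcriptional repressor, was lower in CompE by its brightest probe set. It changed by -1.71 ± 0.304 in log2(signal + 16) (limma SE, 10 pairs, limma adjusted p = 0.00775), with no line higher. Its 2 other, dimmer probe sets were at -0.63 and 0.31, and averaging all 3 gave -0.68 (limma adjusted p = 0.0440). The reference genes NOTCH3, MYC and CR2 changed by -1.34, -1.50 and -1.95, each with 1 line higher. All 3 were called, but with the ACTB ratio as a covariate MYC and CR2 were not (limma adjusted p = 0.0570 and 0.0624).

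LUNAR1 was lower in CompE in every line, and the 5 lines with most LUNAR1 in DMSO had the largest differences. The DMSO signal, from a single array, is itself a term of each difference, so this relation is partly built in and was not tested. The ratio of DMSO to CompE signal ran from 4.03 in PF382 to 2.09 in KOPTK1 within these lines. Among the lower 5 it did not follow the DMSO signal: CCRF-CEM, the lowest line, had 1.87, above MOLT3 at 1.67. In DMSO the MAS5 signal, a linear intensity scaled to the same trimmed mean on each array, was 379 in CUTLL1, 354 in PF382, 294 in HPB-ALL, 260 in ALL-SIL and 221 in KOPTK1. It was 118 in MOLT3, 87.4 in RPMI8402, 77.6 in DND41, 40.6 in P12-ICHIKAWA and 5.39 in CCRF-CEM. The upper 5 lines stood apart from the lower 5 by a gap between 221 and 118, and CCRF-CEM lay far below the rest. On the CUTLL1 array LUNAR1 was brighter than 79.1% of probe sets, on the CCRF-CEM array than 14.5%.

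Under CompE the signal of LUNAR1 was 127 in CUTLL1, 87.7 in PF382, 91.5 in HPB-ALL, 103 in ALL-SIL and 106 in KOPTK1. It was 70.7 in MOLT3, 57.3 in RPMI8402, 69.1 in DND41, 37.5 in P12-ICHIKAWA and 2.88 in CCRF-CEM. The spread between lines was thus narrower in CompE, with 75.2 ± 36.2 against 184 ± 135 in DMSO (mean ± SD, n = 10), and the ranges overlapped.

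**Figure D1:**
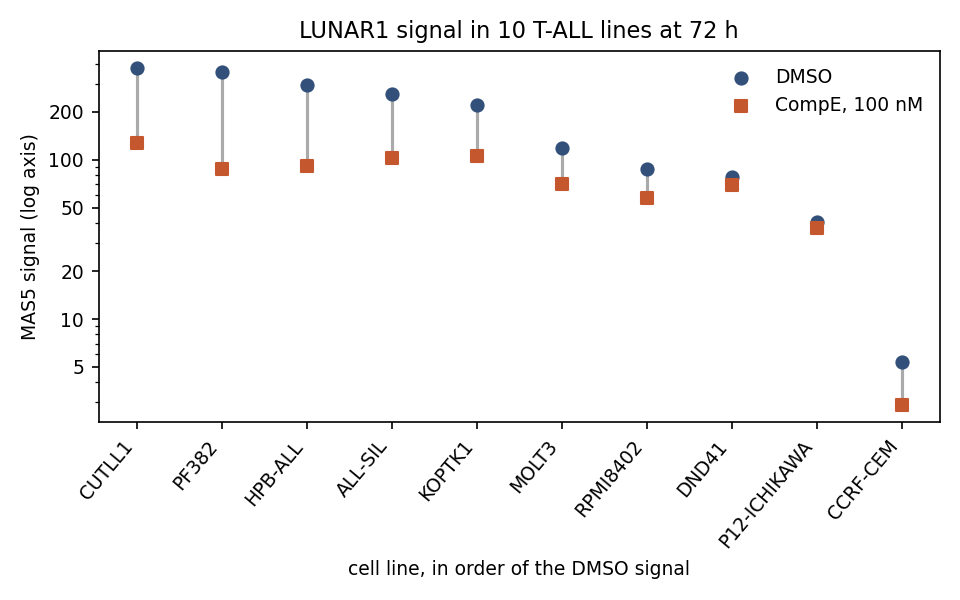
MAS5 signal of LUNAR1 (log axis) in each of 10 T-ALL lines after DMSO (circles) and CompE (squares) at 72 h, with a grey line joining the pair of arrays of a line. All 10 squares lie below their circles, from a ratio of 4.03 in PF382 to 1.08 in P12-ICHIKAWA.

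The mean change of LUNAR1 was -0.85 ± 0.639 on the log2(signal + 16) scale (SD, SE 0.202, n = 10 lines). PF382 was lowest, at -1.83, followed by HPB-ALL at -1.53, CUTLL1 at -1.47 and ALL-SIL at -1.22. KOPTK1 stood at -0.96, MOLT3 at -0.63 and RPMI8402 at -0.50. CCRF-CEM was at -0.18, DND41 at -0.14 and P12-ICHIKAWA at -0.08. In DND41 and P12-ICHIKAWA the transcript was measured at 77.6 and 40.6 in DMSO and kept most of that signal, whereas in CCRF-CEM both arrays were so dim that the added 16 dominates the change. Of all 7695 genes tested, 1.51% were lower in all 10 lines, a share given as background only, since LUNAR1 was chosen for its fall. Line accounted for 79.4% of the sum of squares of LUNAR1, treatment for 13.7% and the remainder for 6.9%.

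Per line, the change of LUNAR1 went with that of HES1. The changes of HES1 were -3.52 in PF382, -3.51 in CUTLL1 and -3.04 in HPB-ALL, the same 3 lines in which LUNAR1 had its lowest changes. HES1 was at -1.83 in KOPTK1, -1.78 in CCRF-CEM, -1.46 in MOLT3, -0.67 in RPMI8402, -0.66 in DND41, -0.40 in P12-ICHIKAWA and -0.28 in ALL-SIL. The genes parted in ALL-SIL, where LUNAR1 was at -1.22, and in CCRF-CEM, where it was at -0.18 from a very dim signal. Pearson's r between the changes of LUNAR1 and HES1, by its brightest probe set, was 0.75 over 10 lines. Of the genes tested 0.364% had a higher r with LUNAR1. Both changes of a line come from the same pair of arrays and share their scaling. For other NOTCH-linked genes r with the LUNAR1 change was 0.38 (CR2, complement receptor), 0.37 (NOTCH3, a receptor of the family) and 0.31 (MYC, a growth regulator). A higher r was found for 13.1%, 13.5% and 18.8% of genes, in the same order. In DMSO, levels of LUNAR1 and NOTCH3 had r = 0.80, those of LUNAR1 and CR2 0.69, and those of LUNAR1 and HES1 -0.26. For these levels 0.559%, 1.99% and 72.1% of genes had a higher r.

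IGF1R was lower in CompE by its 2 bright probe sets, in 9 and in all 10 lines, and its remaining probe set was dim throughout. By the brightest, the signal in DMSO was 904 in CUTLL1, 667 in ALL-SIL, 650 in RPMI8402, 380 in HPB-ALL and 350 in MOLT3. It was 239 in P12-ICHIKAWA, 205 in PF382, 141 in DND41, 62.7 in KOPTK1 and 37.6 in CCRF-CEM. In CompE the same probe set read 866 in CUTLL1, 572 in ALL-SIL, 201 in RPMI8402, 224 in HPB-ALL and 49.6 in MOLT3. The remaining values were 62.9 in P12-ICHIKAWA, 130 in PF382, 80.2 in DND41, 191 in KOPTK1 and 30.2 in CCRF-CEM. By this probe set CUTLL1 and ALL-SIL thus kept a high signal, MOLT3 had the largest ratio of DMSO to CompE signal at 7.06, and KOPTK1 alone was higher.

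The mean change by this probe set was -0.69 ± 1.07 (log2, SD, SE 0.338, n = 10). MOLT3 stood at -2.48, P12-ICHIKAWA at -1.69 and RPMI8402 at -1.62. DND41, HPB-ALL and PF382 lay between -0.72 and -0.59, and ALL-SIL (-0.22), CCRF-CEM (-0.21) and CUTLL1 (-0.06) lay near 0. KOPTK1 stood at 1.39. Without MOLT3 the mean was -0.49, without KOPTK1 -0.92, and without the 3 lines with differing medium labels, of which MOLT3 and P12-ICHIKAWA are 2, it was -0.36 ± 0.347 (SE, n = 7).

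The second probe set of IGF1R read in DMSO 413 in HPB-ALL, 325 in CUTLL1, 285 in ALL-SIL, 187 in RPMI8402 and 181 in PF382. It read 122 in MOLT3, 113 in DND41, 103 in KOPTK1, 102 in P12-ICHIKAWA and 95.5 in CCRF-CEM. In CompE it read 223 in HPB-ALL, 278 in CUTLL1, 166 in ALL-SIL, 69.4 in RPMI8402 and 116 in PF382. MOLT3 was at 20.2, DND41 at 64.7, KOPTK1 at 56.9, P12-ICHIKAWA at 86.2 and CCRF-CEM at 79.9. Every line was lower, and the mean change was -0.73 ± 0.534 (SD, SE 0.169, n = 10), from -1.93 in MOLT3 and -1.25 in RPMI8402 to -0.21 in P12-ICHIKAWA and CUTLL1.

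**Figure D2:**
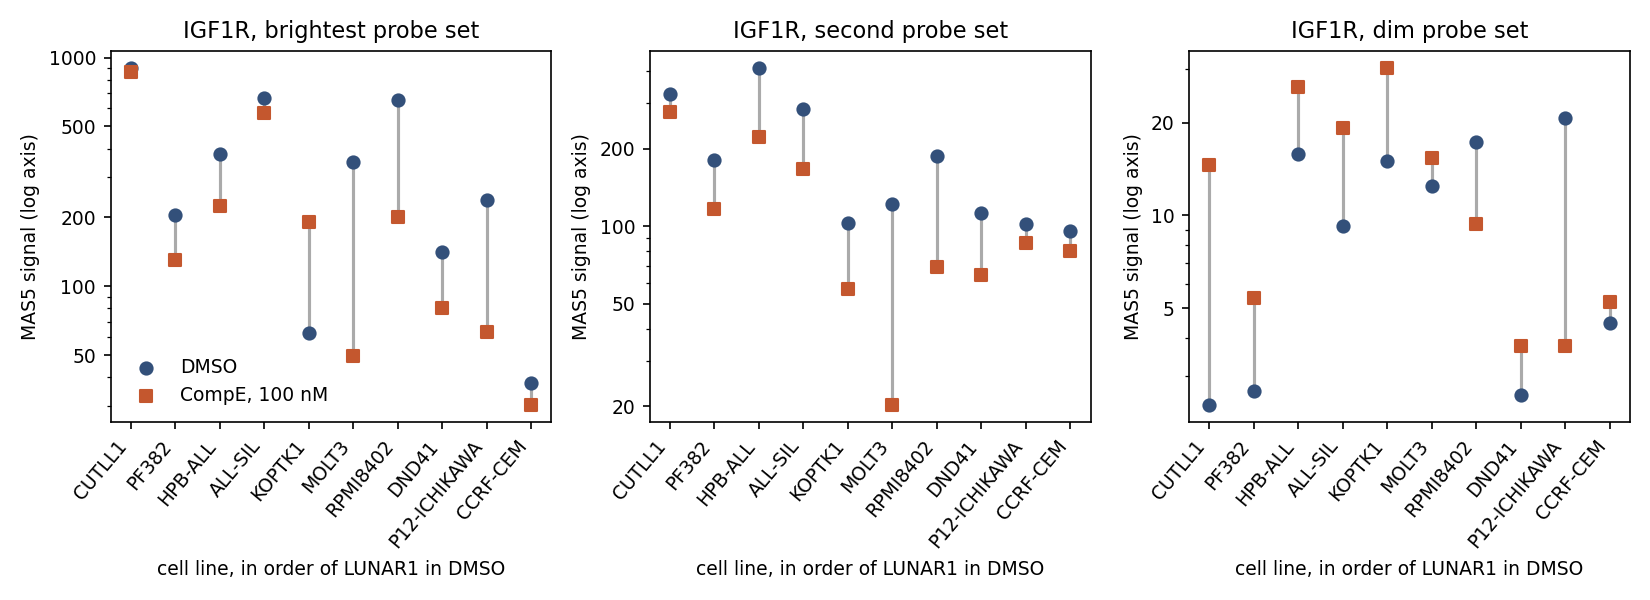
MAS5 signal of the 3 IGF1R probe sets (log axes, a different range in each panel) after DMSO (circles) and CompE (squares), with lines ordered by LUNAR1 in DMSO. The brightest probe set was lower in CompE in 9 lines and the second in 10, while the dim one was higher in 8.

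The bright probe sets of IGF1R disagreed most in KOPTK1 and P12-ICHIKAWA. In ALL-SIL the change was -0.22 by the brightest and -0.72 by the second. In KOPTK1 the brightest read 62.7 in DMSO against 191 with CompE, and the second 103 against 56.9, and these are the arrays with the high ACTB ratios. In P12-ICHIKAWA the brightest read 239 against 62.9, and the second 102 against 86.2. Over the 10 lines the changes of the pair had r = 0.54, and their levels in DMSO r = 0.74. The dim probe set lay between 2.41 and 30.3 on all arrays, brighter than 1.51% to 34.2% of probe sets, and its mean change was 0.14 ± 0.482 (SD, n = 10). With the ACTB ratio as a covariate beside the line, the change was -0.93 for LUNAR1, -1.10 for the brightest and -0.77 for the second probe set of IGF1R. KOPTK1 weighs heavily in that covariate. Over 10 lines, the ACTB ratio change had r = 0.55 with the change of the brightest probe set, and -0.25 without KOPTK1. With the LUNAR1 change r was 0.17, and 0.54 without KOPTK1. With the second probe set of IGF1R it was 0.08, and 0.16 without KOPTK1. The part of RNA quality in these values was otherwise not tested.

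In the untreated lines the levels of both genes went together, more closely by the second probe set of IGF1R. Over 10 DMSO arrays LUNAR1 and the second probe set had Pearson's r = 0.70 and Spearman's rho = 0.79, and r = 0.61 without CCRF-CEM and P12-ICHIKAWA, the lines farthest from the median of LUNAR1. With the brightest probe set r was 0.55 and rho 0.56, and r was 0.17 without the same 2 lines and to 0.21 without CCRF-CEM alone, so that this relation rested on the line with almost no signal of LUNAR1. Of the genes tested, 1.68% had a higher r with LUNAR1 than the second probe set and 6.24% a higher r than the brightest. CCRF-CEM was the lowest line for LUNAR1 and for both bright probe sets. KOPTK1 went against the pattern, among the upper 5 lines for LUNAR1 and among the lowest 3 for IGF1R by both. In the CompE arrays r was 0.73 with the brightest and 0.31 with the second probe set, and 0.72 and 0.65 without CCRF-CEM and P12-ICHIKAWA.

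The changes under CompE showed no such relation. LUNAR1 and the brightest probe set of IGF1R had r = -0.34 and rho = -0.33 over 10 lines, and 88.4% of genes had a higher r with the change of LUNAR1. With the second probe set r was -0.022 and rho 0.20, with 56.6% of genes higher. Without HPB-ALL and PF382, the lines farthest from the median LUNAR1 change, r was -0.44 and 0.01. MOLT3 and RPMI8402, with the lowest changes by the second IGF1R probe set, had LUNAR1 changes of -0.63 and -0.50. In CUTLL1 LUNAR1 was at -1.47 and IGF1R at -0.06 and -0.21. These r values describe 10 points, with no p, and each point's values share 2 arrays.

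**Figure D3:**
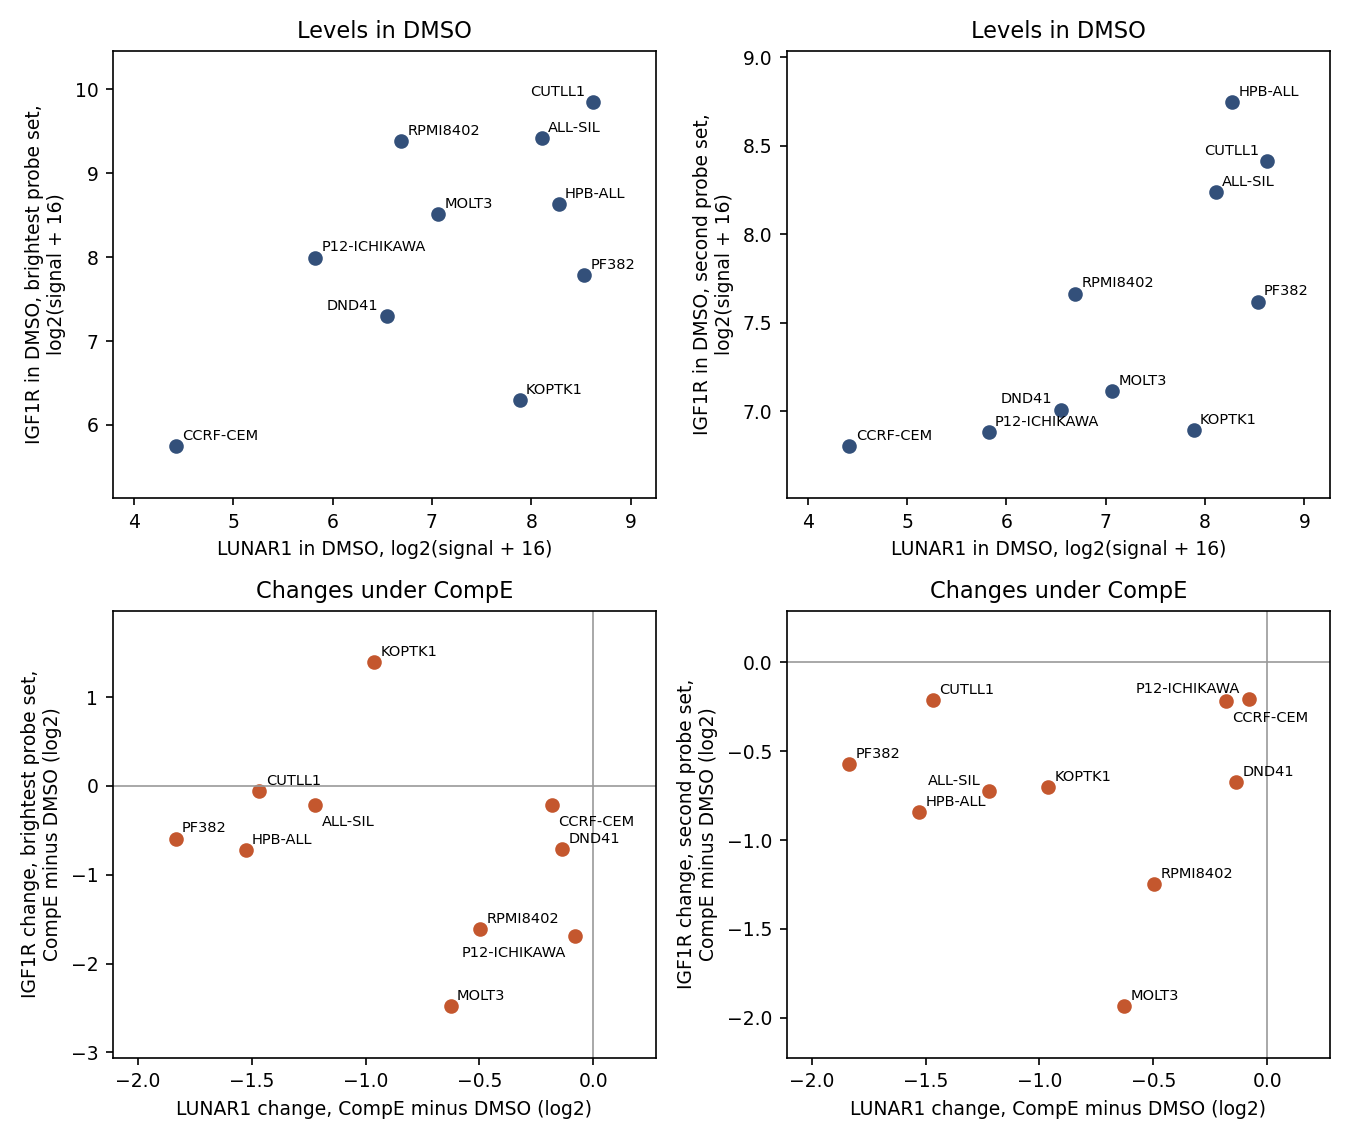
LUNAR1 (horizontal) against IGF1R (vertical) over 10 lines, by the brightest (left) and the second probe set (right), as levels in DMSO on the log2(signal + 16) scale (upper row) and as log2 changes, CompE minus DMSO (lower row). Levels went together (r = 0.55 and 0.70), while the lowest IGF1R changes, in MOLT3 among others, were not in the lines with the lowest LUNAR1 changes (r = -0.34 and -0.022).

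Other genes resembled LUNAR1 more closely than IGF1R did. By levels in DMSO, the 5 tested genes with the highest r were the kinase VRK1 (0.93), MAL, a membrane protein of T cells (0.92), the glycolytic enzyme PFKP (0.92), SLC35G2 (0.89) and the zinc finger gene ZNF217 (0.88). By changes over the 10 lines they were ZNF250 (0.91), LRP5L (0.90), GCC1 (0.87), the angiogenic factor VEGFA (0.84) and ZKSCAN3 (0.84). None of these 10 genes passed the test for a change under CompE, with mean changes from -0.24 (VRK1, limma adjusted p = 0.186) to 0.26 (GCC1, adjusted p = 0.127). For the brightest probe set of IGF1R the closest by levels were HCRP1 (0.95), SMARCC2 of the SWI/SNF chromatin complex (0.93), RUFY2 (0.90), MTF2 of Polycomb complex PRC2 (0.90) and ZNF611 (0.90). By changes they were the sulfate transporter SLC26A2 (0.99), the small GTPase RAP2A (0.98), YIPF6 (0.97), GTPBP8 (0.97) and the telomere protein TERF1 (0.97). All 5 of the last were higher in KOPTK1, by 0.51 to 1.18, and r remained at 0.94 to 0.98 without that line. With 7694 genes compared over 10 points, high values of r arise in number, and 340 genes exceeded 0.6 with LUNAR1 in DMSO.

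Of the 8 nearest tested genes on the chromosome, MEF2A was called higher and 0 were called lower, and 3.24% of all genes were called lower. Before IGF1R these were UNC45A, the mitotic factor PRC1, VPS33B and FAM174B, and after LUNAR1 they were the transcription factor gene MEF2A, LINS1, ASB7 and CHSY1, an enzyme of chondroitin synthesis. By RefSeq they are not close: the 4 before IGF1R end 5.99 to 7.69 Mb from its start, and the 4 after LUNAR1 begin 0.534 to 2.14 Mb from its end. Of the 8, 1 was called, against 7.17% of all 7695 genes tested (limma, Benjamini-Hochberg 0.05). It was MEF2A, which rose by 0.57 ± 0.117 (log2, SE, limma adjusted p = 0.0141), and 3.94% of all genes were called higher. Its signal went from 489 to 729 on average and was higher in 9 of 10 lines, most in DND41 (443 to 1051) and CUTLL1 (344 to 778), with KOPTK1 at 869 and 824. Its other probe sets stood at 0.31 and 0.17, and averaging all 3 gave 0.35 (limma adjusted p = 0.0496). The other 7 had changes from -0.08 (FAM174B) to 0.26 (UNC45A, limma adjusted p = 0.113). A second probe set of UNC45A stood at -0.17. Between FAM174B and MEF2A, IGF1R and LUNAR1 aside, RefSeq annotates 103 genes, 9 of them protein coding. The array names 4 of the 103, CHD2, MCTP2, SYNM and TTC23, all under the signal filter. Correlated with LUNAR1 over the DMSO arrays, r was 0.64 for UNC45A, 0.59 for MEF2A, 0.54 for LINS1 and 0.52 for PRC1, and from -0.03 to 0.39 for the remaining 4.

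**Figure D4:**
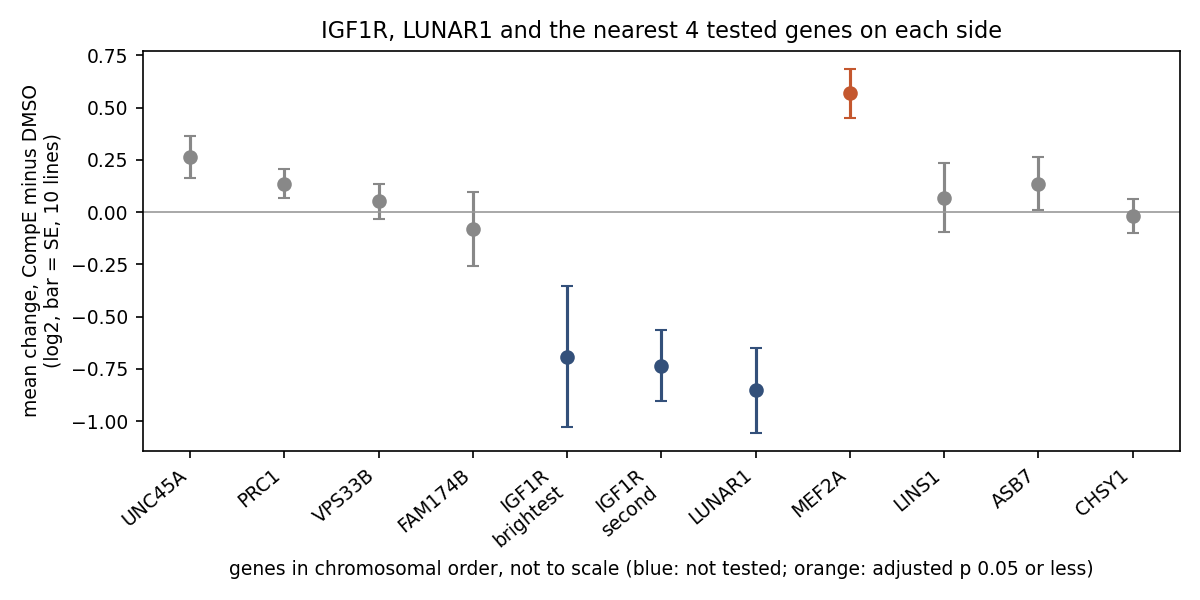
Mean change under CompE (log2, CompE minus DMSO, bars are SE over 10 lines) of IGF1R by its 2 bright probe sets, of LUNAR1 and of the nearest 4 tested genes on each side, in chromosomal order and not to scale. The members (blue, SE of the paired differences) lie between -0.69 and -0.85 and were not tested, and MEF2A (orange) is the 1 neighbour past the threshold, at 0.57 (SE from limma).

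The pathway around the receptor was followed in 72 genes from general knowledge, of which 58 had a probe set and 46 were bright enough to test. Of the 46, 2 rose and 0 fell, 4.35% against 7.17% called among all genes. The median change of the list was 0.14, against 0.04 over all genes tested, and 10 of its 46 members were below 0. With each array centred on its median, the calls over all genes were 116 higher and 340 lower, against 303 and 249, and the same 2 counts held for the list.

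No ligand could be tested: IGF1 and INS were under the filter and IGF2 had no probe set to itself. Of the receptors related to IGF1R, the insulin receptor INSR was at 0.05 ± 0.216 (SE, limma adjusted p = 0.917). In KOPTK1 its signal was 205 with CompE against 35.8 in DMSO, on the arrays with the high ACTB ratios. There the brightest probe set of IGF1R was also higher, and the second was lower. In the other 9 lines the change of INSR ran from -0.65 in P12-ICHIKAWA to 0.49 in DND41. With the ACTB ratio as a covariate the change of INSR was -0.41 (limma adjusted p = 0.208). Its dimmer probe set stood at 0.0009. IGF2R, which clears IGF2 from the surface, was at 0.15 ± 0.111 (adjusted p = 0.433), and its second probe set at -0.06. None of the 4 tested binding proteins, which hold IGF ligands outside the cell, was called, and IGFBP2 was bright throughout, with means of 4170 and 4114.

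Among 8 tested adapters, which pass the signal from the receptor, 0 were called. Of the 46 list members 11 had an unadjusted p under 0.05, against 25.1% of all genes tested. IRS1 was higher in all 10 lines, at 0.27 ± 0.118 (limma adjusted p = 0.167), and IRS2 and IRS4 were at 0.18 and 0.16. The share of all genes higher in all 10 lines was not counted, and 41.1% of genes tested had a mean change below 0. GRB10, an inhibitory adapter, was at 0.43 ± 0.138 (adjusted p = 0.0654). In other roles of the list, genes about as near the threshold went both ways. SOS2 was at 0.30 (limma adjusted p = 0.0518), FOXO1 at 0.46 (adjusted p = 0.0653) and RPS6KB1 at -0.34 (adjusted p = 0.0674).

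Both called genes belong to PI3 kinase, the lipid kinase downstream of the receptor. They are 2 of 19 tested genes of the PI3K, AKT, FOXO and mTOR branch, against 7.17% called among all genes. The branch itself was not tested, and so few calls do not set it apart from that share. PIK3R3, a regulatory subunit, rose by 0.55 ± 0.081 (limma adjusted p = 0.00448) and was higher in all 10 lines. Its signal in DMSO ran from 197 in CUTLL1 to 614 in PF382, and the change from 0.14 in ALL-SIL to 0.75 in DND41. PIK3CD, the catalytic subunit p110δ of white blood cells, rose by 0.47 ± 0.080 (adjusted p = 0.00692), also in all 10 lines. Its signal in DMSO ran from 107 in HPB-ALL to 1717 in KOPTK1, and the change from 0.13 in PF382 to 0.75 in HPB-ALL. In MOLT3, where IGF1R was at -2.48 and -1.93 by its bright probe sets, PIK3R3 and PIK3CD were at 0.56 and 0.60. In CUTLL1, where IGF1R was at -0.06 and -0.21, they were at 0.72 and 0.47. How their changes go with those of IGF1R over the 10 lines was not tested. The dim second probe sets of PIK3R3 and PIK3CD stood at 0.18 and 0.17. PIK3CD was not called when probe sets were averaged (0.32, limma adjusted p = 0.0539) or with line as a random block (adjusted p = 0.167).

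Without KOPTK1 the list had 5 calls of 46, 3 higher and 2 lower, while calls over all genes went from 552 to 1031, or 13.4%. The added ones were SOS2, an activator of RAS (0.32, limma adjusted p = 0.0265), GSK3B, a kinase that AKT inhibits (-0.52, adjusted p = 0.0318), and MLST8, an mTOR subunit (-0.43, adjusted p = 0.0249). Over all 10 lines these were at 0.30, -0.41 and -0.26 and not called. With the ACTB ratio as a covariate MLST8 was called, at -0.59 (limma adjusted p = 0.0439). Of 6 tested RAS-MAPK genes and 7 genes of receptor processing and turnover, 0 were called; at 7.17% over all genes, groups of this size would hold less than 1 call each.

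**Figure D5:**
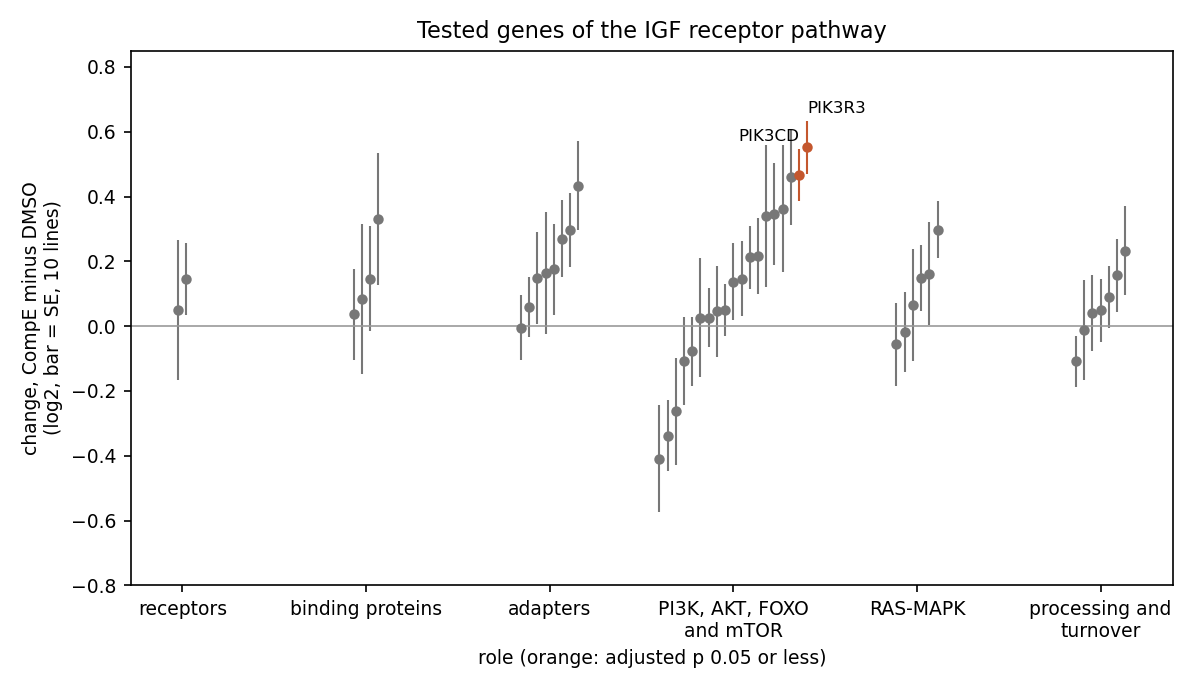
Change under CompE (log2, CompE minus DMSO, bars are limma SE over 10 lines) of the 46 tested genes of the IGF receptor pathway, by role, sorted within each role. PIK3R3 and PIK3CD (orange) passed the threshold, at 0.55 and 0.47, and the others lie between -0.41 and 0.46.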

How the data were processed

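The authors deposited linear MAS5 signal intensity values, per the submitters' processing notes, with version and settings not given in the sources used here. Trimmed by 2% at either end, the mean signal of each array was 250, so arrays had been scaled to 1 target, and that scaling was kept. Controls (62 of 22277 probe sets) were left out. The platform annotation gave 1 gene for 19064 probe sets, several for 1043, and did not list 2108. Signals were analysed as log2(signal + 16), which understates changes of dim genes. For tests, the probe set with the highest mean stood for a gene, and genes under the 40th percentile of signal (32.5) were left out. The remaining 7695 genes were fitted in limma 3.58.1 (R 4.3.3) with a fixed term for line, a trend on intensity and two-sided Benjamini-Hochberg adjustment at 0.05. The code was tested on simulated data. Detection calls were not used.

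Members, lists and rules were chosen with earlier results of these data known. Named genes were both members, the nearest 4 tested genes on each side of IGF1R, ligands, receptors, IRS adapters and called genes of the pathway list, the 5 genes most correlated with each member, and reference NOTCH targets. SOS2, GSK3B, MLST8, GRB10, FOXO1, RPS6KB1 and IGFBP2 were named after their values were seen. The pairing of arrays comes from the labels, which name each line. No label tells whether treated and untreated cells were grown independently. Each p rests on how far the CompE minus DMSO difference varied between lines, which includes the noise of single arrays. In p and SE alike, limma draws this spread toward that of other genes of like intensity. For HES1 the SE from the paired differences alone was 0.399. The number of arrays limits the precision.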

Additional observations from a re-analysis of the deposited data

Results flagged for a closer look

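In 2 of 31 sets of 10 line values checked, 1 line stood apart from the rest by more than the limit of Dixon's test, which chance passes in about 1 of 20 sets. The change of INSR in KOPTK1, the line with the high ACTB ratios, was 2.09, with the next line at 0.49. The change of IGF2R in P12-ICHIKAWA was -0.69, with the next at -0.07. No set of LUNAR1 or IGF1R values met the limit.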

How the results depend on the processing

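Member changes were recomputed with other pseudocounts (1 and 64), median centring, quantile normalization, the ACTB ratio as a covariate and without lines. LUNAR1 and both bright IGF1R probe sets stayed below 0 in all of these. Leaving out 1 line at a time, LUNAR1 ranged from -0.94 to -0.74, the brightest IGF1R probe set from -0.92 to -0.49 and the second from -0.79 to -0.60. By its dim probe set IGF1R was at 0.14.

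The correlation of LUNAR1 with IGF1R levels in DMSO ran from 0.21 to 0.73 over the sets of 9 lines; it was 0.19 without the 3 lines with another medium label and -0.11 with the dim IGF1R probe set. That of the changes lay from -0.43 to -0.23; it was -0.022 with the second and -0.67 with the dim probe set. A shift of 0.2 in r was taken as a move.

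The 2 calls in the pathway list became 1 with the mean of probe sets and 1 with line as a random block. They became 0 with no replicate block and 5 without KOPTK1. With the ACTB ratio as a covariate they were 3, 2 higher and 1 lower, with 318 calls over all genes. They lay between 2 and 5 over the sets of 9 lines, where calls over all genes ran from 181 to 1031. The 1 neighbour called became 0 with no replicate block and stayed 1 when any line was left out. With no replicate block 0 of all 7695 genes tested were called, so the drop to 0 was not particular to these genes. Without the block, limma gave 1 list gene and 1 neighbour an unadjusted p under 0.05. The share of all genes under that level without the block was not counted. The cause of the moves in these counts was not tested. Levels near the noise of MAS5, as for LUNAR1 in CCRF-CEM, limit what a change there can show.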
